A study of Homo sapiens with 4 samples.

Results

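The CDKN2A/CDKN2B locus on the short arm of chromosome 9 was described in C4-2 cells, human prostate cancer cells of the LNCaP lineage that grow without androgen, through 4 of the 59385 features of the deposited count table. These were CDKN2A, CDKN2B, CDKN2B-AS1 and MTAP, chosen by name because the locus is known as a target of the Polycomb enzyme EZH2, with earlier results of the same libraries already known. One group of cells was treated with BHB (beta-hydroxybutyrate, a ketone body) at 50 mM in RPMI for 3 days, and the control group received RPMI medium alone. Both groups were C4-2 cells maintained in RPMI with fetal bovine serum, and each group had 2 libraries, numbered 1 and 2. The labels do not say whether the libraries came from separate cultures, so any spread between them may be technical, and a single cell line is one model of the disease.

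The locus encodes inhibitors of the cell cycle. CDKN2B encodes p15INK4B, and CDKN2A encodes p16INK4A and, from an upstream first exon read in another frame, ARF. The INK4 proteins bind CDK4 and CDK6 and keep them from the D cyclins, so the retinoblastoma protein stays active, while ARF binds and restrains the ubiquitin ligase MDM2. CDKN2B-AS1, also called ANRIL, is a long noncoding RNA read from the other strand and has been reported to bind Polycomb proteins that silence the inhibitors. MTAP encodes the phosphorylase of methionine salvage that breaks down methylthioadenosine, and in tumours it is often deleted together with CDKN2A.

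The genes lie close to each other and partly on top of each other in GENCODE release 29 (GRCh38). CDKN2A occupies chr9:21967753-21995301 and CDKN2B chr9:22002903-22009363, both on the minus strand. CDKN2B-AS1 runs on the plus strand over chr9:21994778-22121097, and MTAP, also on the plus strand, over chr9:21802543-21937651. The body of CDKN2B-AS1 overlaps 524 bases of CDKN2A, of which 341 are exonic in both, and it covers all 6461 bases of CDKN2B, where no exons overlap in that release. The deposited table gives CDKN2B-AS1 an exon length of 20420 bases against 8024 in release 29, so the authors counted a longer gene model and exon overlap with CDKN2B there is not known. CDKN2A, CDKN2B and MTAP had lengths of 3885, 4000 and 14527 bases in the table against 4329, 4058 and 14617 in release 29. Whether the counting used the strand is not given in the sources used here. Where exons overlap, reads of CDKN2B-AS1 and of the inhibitors opposite it therefore cannot be told apart. In release 29, the exons of CDKN2B-AS1 after its first start at chr9:22029433 or above, beyond the end of CDKN2B. The kit marks the strand, and the setting may have been the opposite one. In that case counts listed under a gene would be reads of the other strand over its exons, those listed under CDKN2B-AS1 would belong to the strand of the inhibitors, and those listed under CDKN2A and CDKN2B to the strand of CDKN2B-AS1. Values below are therefore counts listed under a name, and which strand they come from was not tested.

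**Figure D1:**
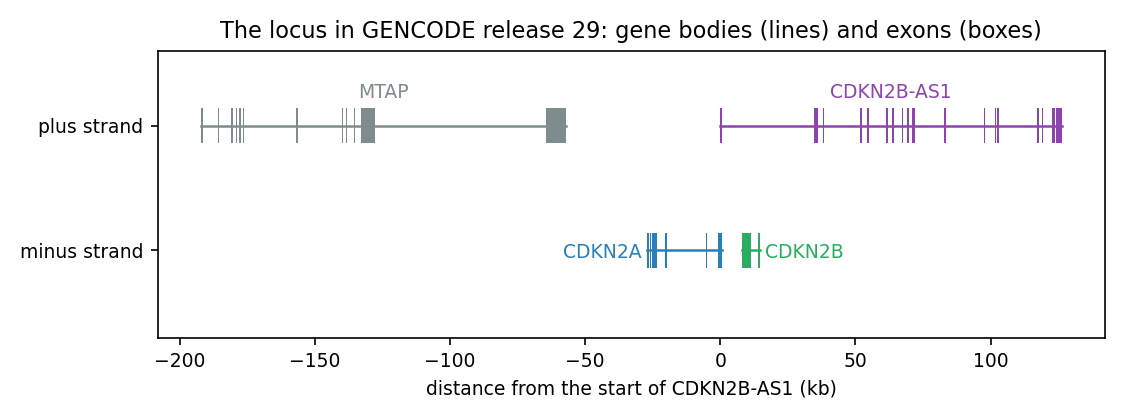
Gene bodies (lines) and exons (boxes) of the 4 genes by strand, against the distance in kb from the start of CDKN2B-AS1. MTAP and CDKN2B-AS1 are on the plus strand, CDKN2B lies wholly within the body of CDKN2B-AS1, and the upstream end of CDKN2A overlaps the start of CDKN2B-AS1 over 524 bases.

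The start regions are shown because the ARF start of CDKN2A and the start of CDKN2B-AS1 face each other 533 bases apart, so that each RNA begins inside the other's body, and because regions rich in CpG are those that Polycomb complexes are known to occupy. Sequences are from RefSeq (GRCh38.p14), 250 bases before the start site and 50 from it, read along the gene's own strand, with CpG dinucleotides in capitals. The windows are CDKN2A at its upstream start (chr9:21995275-21995574, minus strand), CDKN2A at its downstream start for p16INK4A (chr9:21974808-21975107, minus strand), CDKN2B-AS1 (chr9:21994541-21994840, plus strand) and CDKN2B (chr9:22009256-22009555, minus strand).
CDKN2A upstream start: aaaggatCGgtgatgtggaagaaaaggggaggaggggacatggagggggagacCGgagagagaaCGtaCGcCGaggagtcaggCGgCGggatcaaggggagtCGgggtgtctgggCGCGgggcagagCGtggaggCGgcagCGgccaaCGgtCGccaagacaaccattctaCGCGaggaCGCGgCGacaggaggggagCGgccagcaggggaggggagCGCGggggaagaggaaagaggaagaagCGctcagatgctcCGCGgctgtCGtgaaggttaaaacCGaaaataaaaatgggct
CDKN2A downstream start: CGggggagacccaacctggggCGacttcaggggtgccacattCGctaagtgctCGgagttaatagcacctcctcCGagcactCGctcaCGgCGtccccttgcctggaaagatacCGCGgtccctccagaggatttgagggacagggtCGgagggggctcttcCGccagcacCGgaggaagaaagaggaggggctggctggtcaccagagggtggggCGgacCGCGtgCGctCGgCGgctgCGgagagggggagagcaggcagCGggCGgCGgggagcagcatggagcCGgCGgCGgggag
CDKN2B-AS1: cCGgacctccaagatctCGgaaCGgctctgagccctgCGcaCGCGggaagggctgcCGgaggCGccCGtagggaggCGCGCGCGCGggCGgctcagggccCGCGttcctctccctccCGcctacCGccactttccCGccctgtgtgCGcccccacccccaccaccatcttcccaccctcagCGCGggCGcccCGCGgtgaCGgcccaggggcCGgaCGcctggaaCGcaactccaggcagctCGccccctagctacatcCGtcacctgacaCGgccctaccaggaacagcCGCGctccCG
CDKN2B: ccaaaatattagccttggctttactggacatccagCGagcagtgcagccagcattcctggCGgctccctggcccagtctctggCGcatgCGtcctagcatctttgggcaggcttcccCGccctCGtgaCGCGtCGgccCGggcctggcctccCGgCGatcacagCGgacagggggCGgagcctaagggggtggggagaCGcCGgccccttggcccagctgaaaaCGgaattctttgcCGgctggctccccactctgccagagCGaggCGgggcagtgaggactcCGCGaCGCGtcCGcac
The window of CDKN2B-AS1 held the most CpG of these, 36, with more than in 87.3% of the 35116 RefSeq windows of the same length. The upstream and downstream windows of CDKN2A held 28 and 26, CDKN2B held 25 and MTAP 15, against a median of 14 over all windows. The motif GGGCGG, the core of binding sites of the factor SP1, was searched on both strands. It was found 2 times each at the downstream CDKN2A start, CDKN2B, CDKN2B-AS1 and MTAP, and 0 times at the upstream CDKN2A start, and 45.0% of all windows hold at least 1 match. No measurement of binding or methylation was analysed here, and these letters are a description only.

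The libraries were shallow, with total counts of 2233711 to 2565080, and they were checked against the label before the locus was read. All 10 prostate luminal and C4-2 markers had counts. Their summed count was 10841 and 10559 in the BHB libraries and 13144 and 12957 in the controls, of which 9221 to 12028 per library were listed under the keratin gene KRT8. Of the markers of other cell types, 4 of 4 leukocyte genes, 3 of 4 basal genes, 4 of 5 fibroblast genes and 2 of 4 endothelial genes were at 0 in every library. Of 4 neuroendocrine genes 0 were at 0 throughout, and their summed count was 24 and 23 with BHB and 29 and 23 in controls. The controls differed from each other in coding genes with no gene on the other strand, which held 8.58% of counts in control replicate 1 and 4.65% in control replicate 2, with 6.68% and 7.18% in BHB replicates 1 and 2. Over 1140 such genes with a mean of at least 20 counts, the median log2 ratio of control replicate 1 to control replicate 2 was 1.35.

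Most of the counts of the locus were listed under CDKN2B-AS1, and they stood lower with BHB, by an amount that depended on the library. If the strands were exchanged in the counting, these would be counts of the strand of CDKN2A and CDKN2B. It had 164 and 91 counts in BHB replicates 1 and 2, and 260 and 157 in control replicates 1 and 2. Its counts overlapped between the groups, since BHB replicate 1 lay above control replicate 2. As CPM, the count scaled to a common library size, with TMM factors (trimmed mean of M-values, which correct for the makeup of a library), it had 72.3 and 40.9 CPM with BHB and 93.7 and 80.0 CPM in controls. On that scale both BHB libraries lay below both controls, as did 14% of the 9295 features tested. By total counts alone it had 72.2 and 40.7 CPM with BHB and 101 and 70.2 CPM in controls, and the groups overlapped again. The means were 56.6 ± 22.2 CPM with BHB and 86.9 ± 9.68 CPM in controls (TMM-scaled, SD, n = 2 each). The whole-table edgeR fit gave a log2 fold change of −0.62 (SE 0.33), which is a description with no test because the gene was chosen with this contrast known. In bulk RNA, fewer cells of a kind and less RNA per cell cannot be told apart.

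The spread of CDKN2B-AS1 between the BHB libraries was wide for a feature of its kind. Its 95% Wilson interval was 61.9 to 84.1 CPM by total counts in BHB replicate 1 and 33.2 to 50.0 in BHB replicate 2, and these intervals, which cover counting error only, do not meet. The log2 ratio of BHB replicate 1 to 2 was 0.82. Among 567 noncoding features that have exons opposite a coding gene and a mean of at least 20 counts, 98.1% had a smaller ratio in either direction, around a median of 0.01 (SD 0.31). Between control replicates 1 and 2 its log2 ratio was 0.53, and 86.6% of the same features had a smaller one. The value without each library in turn shows this spread: −1.06 without BHB replicate 1, −0.26 without BHB replicate 2, −0.51 without control replicate 1 and −0.69 without control replicate 2. Control replicate 1, which held more of the counts in coding genes with nothing opposite, was also the library with the most counts of CDKN2B-AS1, and the part of that difference in the result was not tested.

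Counts listed under CDKN2A, the gene of p16INK4A and ARF, ran the other way at a much lower level. It had 14 and 21 counts in BHB replicates 1 and 2 and 7 and 13 in control replicates 1 and 2. By total counts this was 6.16 and 9.40 CPM with BHB and 2.73 and 5.81 CPM in controls, so both BHB libraries lay above both controls, as did 19.7% of all tested features on that scale. With TMM it was 6.17 and 9.45 CPM with BHB and 2.52 and 6.63 CPM in controls, and the groups overlapped, since control replicate 2 lay above BHB replicate 1. The TMM-scaled means were 7.81 ± 2.31 CPM with BHB and 4.57 ± 2.90 CPM in controls (SD, n = 2 each), and the log2 fold change was 0.80 (SE 0.75). The fold change was smallest without control replicate 1, at 0.22, and largest without control replicate 2, at 1.65. The table counts reads per gene, so p16INK4A and ARF transcripts, among 14 transcripts of the gene in release 29, were not separated.

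CDKN2B, the gene of p15INK4B, was close to the limit of these libraries and did not pass the filter on low counts. It had 8 and 2 counts in BHB replicates 1 and 2 and 2 and 0 in control replicates 1 and 2. A single library, BHB replicate 1, held most of its counts. The pooled counts of 10 with BHB and 2 in controls give a ratio of 5.33 by total counts, with an exact 95% interval of 1.14 to 50.0 that covers counting error only. Without BHB replicate 1 the ratio was 2.15. The count of 0 in control replicate 2 allows up to 1.34 CPM, above the 0.895 CPM of BHB replicate 2, so the depth cannot place the gene in that library. CDKN2A and CDKN2B are related genes, and their transcripts in release 29 share 31 stretches of 50 bases and 0 of 100 bases. That is 0.681% of the 50-base stretches of CDKN2A and 0.765% of those of CDKN2B.

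MTAP, the methionine salvage gene, did not pass the filter either. It had 6 and 6 counts in BHB replicates 1 and 2, and 20 and 0 in control replicates 1 and 2. The BHB libraries lay between the controls, which differed from each other more than the groups did. The pooled ratio of BHB to control was 0.640, with an exact 95% interval of 0.285 to 1.37 for counting error, and 0.342 without control replicate 2. Its values were high in control replicate 1 and at 0 in control replicate 2, the order seen across coding genes with no gene opposite them, and the part of that difference in MTAP was not tested.

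**Figure D2:**
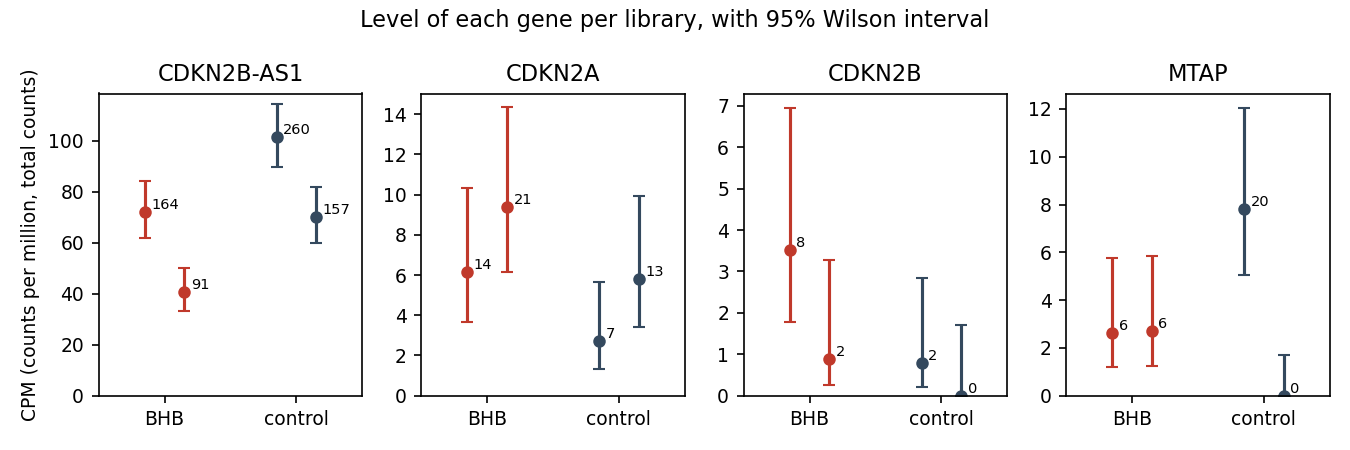
CPM by total counts (y axis) of each gene in the 2 BHB and the 2 control libraries, replicate 1 left of replicate 2 in each group, with 95% Wilson intervals and the count beside each point. CDKN2B-AS1 ranges from 40.7 CPM in BHB replicate 2 to 101 CPM in control replicate 1, while CDKN2A, CDKN2B and MTAP stay below 10 CPM.

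Per length, the order of the genes held in most libraries at the top and was lost at the bottom. Levels of TMM-scaled CPM per kilobase of exon ran from 2.00 to 4.59 for CDKN2B-AS1, 0.649 to 2.43 for CDKN2A, 0 to 0.882 for CDKN2B and 0 to 0.496 for MTAP. CDKN2B-AS1 was above CDKN2A in 3 of 4 libraries, the exception being BHB replicate 2, and CDKN2A was above CDKN2B in 4 of 4. The level of CDKN2B-AS1 uses its deposited exon length of 20420 bases, against 8024 in release 29. With the shorter length and the same counts it would be higher, so its place against CDKN2A depends on the gene model. CDKN2B was above MTAP in the 2 BHB libraries only, and these neighbours in the order did not differ beyond their spread. By mean count CDKN2B-AS1 ranked 1978 among all features and CDKN2A 7855, with MTAP at 9826 and CDKN2B at 13496. CDKN2B-AS1 made up 85.4% and 75.8% of the counts of the 4 genes in BHB replicates 1 and 2, against 90.0% and 92.4% in control replicates 1 and 2. CDKN2A made up 7.29% and 17.5% with BHB and 2.42% and 7.65% in controls.

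The balance between the strands was taken within each library, where library scaling has no part. The log2 ratio of CDKN2B-AS1 to CDKN2A, in counts per kilobase with 0.5 added to each count, was 1.11 and −0.30 in BHB replicates 1 and 2 and 2.72 and 1.15 in control replicates 1 and 2. Both BHB libraries lay below both controls, by a narrow gap between BHB replicate 1 and control replicate 2. The means were 0.40 ± 1.00 with BHB and 1.94 ± 1.11 in controls (SD, n = 2 each), a difference of −1.53, between −2.32 and −0.75 without each library in turn, at −0.75 without control replicate 1 and −2.32 without control replicate 2. The same order of groups was found in 14.7% of 941 opposite-strand pairs, each a coding gene and a noncoding feature with exons across from it and together at least 20 counts on average. The ratio to CDKN2B, whose exons do not overlap those of CDKN2B-AS1 in release 29, was 1.92 and 2.84 with BHB and 4.35 and 5.95 in controls. It rests on the 0 to 8 counts of CDKN2B, and the difference of means was −2.77, between −3.57 and −1.97 without each library in turn. Since the genes were chosen with results of these libraries known, both ratios are descriptions. If the strands were exchanged, each ratio would set the strand of the inhibitors over that of CDKN2B-AS1. Each count would still cover the exons of its listed name. The sign of each difference as a balance of plus over minus strand would turn.

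**Figure D3:**
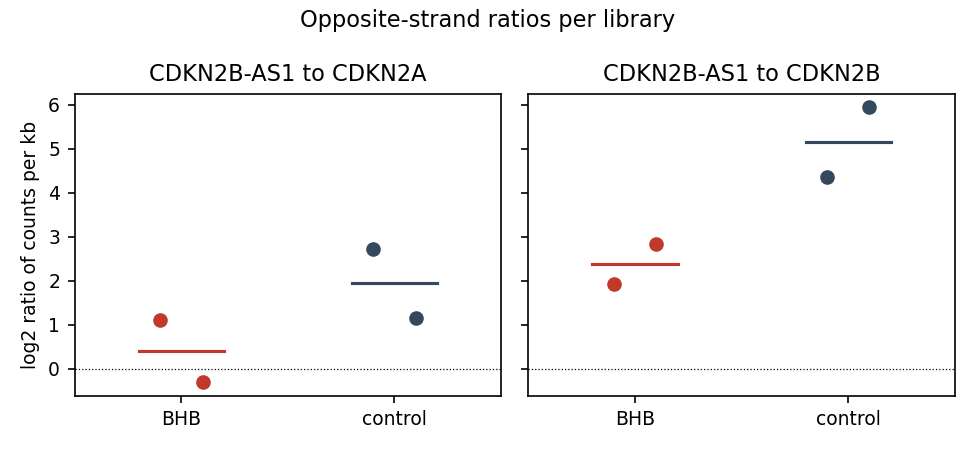
Log2 ratio of counts per kilobase (y axis) of CDKN2B-AS1 to CDKN2A (left) and to CDKN2B (right), for the 2 BHB and the 2 control libraries, with replicate 1 left and bars at the group means. The BHB points lie below the control points in both panels, with 1.11 in BHB replicate 1 next to 1.15 in control replicate 2 for CDKN2A.

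More counts were listed under the noncoding name than under the coding name opposite it in most pairs. Over the same 941 pairs, the noncoding feature had more counts per kilobase in 72.4%, and the median log2 ratio was 3.32. The ratio of CDKN2B-AS1 to CDKN2A, 1.17 in log2 from mean counts, was above that of 34.9% of pairs. Its ratio to CDKN2B, 3.24, was above that of 48.9%, so neither stood at an end of the range. Both ratios use the deposited exon length of CDKN2B-AS1 and would rise with a shorter length and the same counts. In an example chosen after its values were seen, MIF-AS1 averaged 10576.5 counts and the cytokine gene MIF 5.25. If the strands were exchanged in the counting, each ratio would set the strand of the coding gene over that of the noncoding feature. Each count would still cover the exons of its listed name, so the ratios would not simply invert. This was not tested.

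Of the 4 genes, 2 passed the filter, and 0 of these 2 were called in the whole-table fit by edgeR's quasi-likelihood test at a Benjamini-Hochberg adjusted p under 0.05. Over all 9295 tested features, 0% were called higher and 0% lower, so the count of the locus says nothing about it. Before adjustment, 210 features had p under 0.05 by edgeR, 138 by DESeq2 and 248 by limma-voom, and DESeq2 and limma-voom also called 0. CDKN2B-AS1 had an adjusted p of 1.0 by edgeR. As a description, its adjusted p was under 0.05 in 2 alternatives, 0.0078 without control replicate 2, where 7.21% of features were called lower, and 0.0073 when noncoding features opposite a coding gene were fitted on their own, where 4.47% of 671 were. The first of these fits has 1 control library, which is assumed to vary like the BHB pair, and the class in the second was chosen with its small spread known. Neither is a test of the gene, and the range over all alternatives was 0.0073 to 1.0. CDKN2A stayed at 0.16 or more.

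**Figure D4:**
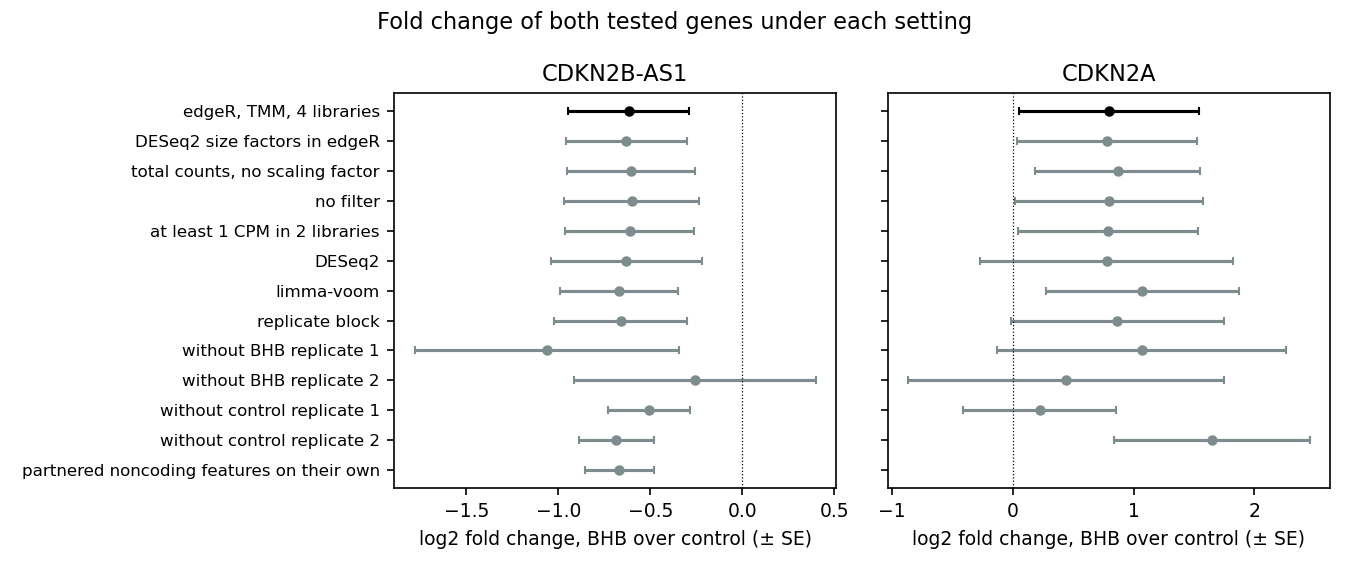
Log2 fold change of BHB over control with its SE (x axis) for CDKN2B-AS1 (left) and CDKN2A (right) under each setting (rows). CDKN2B-AS1 lies between −1.06 and −0.26 and CDKN2A between 0.22 and 1.65, and the ends of both ranges come from leaving out 1 library.

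At a cut of a mean of 20 counts, CDKN2B-AS1 had no placed feature near it. The nearest placed features with a mean of at least 20 counts were the ribosomal protein gene RPS6, 2422289 bases below the locus, and IFT74, a gene of intraflagellar transport, 4825942 bases above it. Among the 71 placed features between them, CDKN2B-AS1 was the 1 feature with a mean of at least 20 counts, and 51 were at 0 in all libraries. Features with clone-style names were not placed and are not in this count. The result depends on the cut, since TUSC1, a neighbour on the same chromosome arm, had a mean of 19.75 counts and CDKN2A one of 13.75. RPS6 had 559 and 614 counts with BHB and 1239 and 188 in control replicates 1 and 2, and IFT74 had 214 and 182 with BHB and 286 and 256 in controls. Within the bodies of the 4 genes, the tubulin pseudogene TUBB8P1, opposite MTAP, had 7 and 8 counts with BHB and 6 and 7 in controls, and reads of a pseudogene can be shared with related copies. ERVFRD-3 and UBA52P6, both pseudogenes, were at 0 throughout. CDKN2A-DT, which ends next to the downstream end of CDKN2A on the plus strand and was added after its values were seen, had 0 and 4 counts with BHB and 4 and 4 in controls.

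The 3 features whose centred log2 CPM over the 4 libraries lay nearest to CDKN2B-AS1, by Euclidean distance among 5129 named features with a mean of at least 20 counts, were ZBTB7A, ATP2B1-AS1 and NECAP1. ZBTB7A, a gene for a transcriptional repressor, had 29 and 15 counts with BHB and 48 and 27 in controls, at a distance of 0.07. ATP2B1-AS1, a long noncoding RNA, had 21 and 11 with BHB and 31 and 20 in controls, at 0.10. NECAP1, a gene of clathrin-mediated endocytosis, had 24 and 12 with BHB and 35 and 24 in controls, at 0.14. All 3 were lowest in BHB replicate 2 and highest in control replicate 1, and with so few libraries and counts such likeness is a description.

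The genes that act with the locus were taken from 7 lists. Of 92 listed genes 57 were tested, and 0 were higher and 0 lower by edgeR, DESeq2 or limma-voom. At an unadjusted p under 0.05 each tool had 1, CDK4. Median log2 fold changes are read against −0.03 over all 9295 tested features.

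CDK4, the kinase that p16INK4A and p15INK4B bind, had 326 and 382 counts with BHB and 254 and 202 in controls. Both BHB libraries lay above both controls, as did 15.1% of tested features by TMM-scaled CPM. Its log2 fold change was 0.70 (SE 0.26, edgeR adjusted p = 1.0), and it passed without control replicate 1 (0.60, adjusted p = 0.0071) and without control replicate 2 (0.82, adjusted p = 1.8e-05), in fits where 5.84% and 9.43% of features were called higher. Those fits have 1 control library each, so the spread comes from the BHB pair alone, and without BHB replicate 1 or 2 CDK4 did not pass (0.84 and 0.57, adjusted p = 1.0 in both). Over its alternatives the adjusted p ran up to 1.0. CDK4 overlaps TSPAN31 on the other strand over 2485 bases. TSPAN31 had 3008 and 2958 counts with BHB and 3709 and 3499 in controls. If the strands were exchanged in the counting, counts listed under CDK4 would be reads of the strand of TSPAN31. Those listed under TSPAN31 would then be reads of the strand of CDK4. The TSPAN31 counts were lower with BHB only as raw counts, not scaled to library size. Control replicate 1 was the largest library, with a total of 2565080. The exchange was not tested, so no direction is drawn for CDK4.

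Other kinases, cyclins, pocket proteins and E2F factors gave no call with all 4 libraries. The median of the list was 0.10 over 8 tested genes of 17, with 0.08 (SE 0.30) for the D cyclin gene CCND1 and 0.15 (SE 0.29) for E2F5, which encodes a repressive E2F. Genes driven by E2F had a median of −0.41 over 16 tested of 17, with 5 positive and 11 negative values. Of the 16, 9 are coding genes with no gene opposite, the class in which the controls differ, and the part of that difference was not tested. Of the E2F-driven genes, MCM2 and MCM7, both subunits of the replicative helicase, had 0.27 (SE 0.24) and −0.29 (SE 0.24). The thymidylate synthase gene TYMS had −0.42 (SE 0.26). TYMSOS, with exons opposite TYMS, averaged 884.5 counts against 227.5 for TYMS. MCM2, MCM7 and E2F5 also lie outside the class with no gene opposite, and the strand of all these counts was not tested. Other CDK inhibitors had a median of −0.84 over 3 tested of 6. CDKN2C, the gene of p18INK4C, had 31 and 26 counts with BHB and 61 and 46 in controls (log2 fold change −0.84, SE 0.43). CDKN1B, which encodes p27, had −0.93 (SE 0.81), with 12 and 18 counts with BHB between 60 and 7 in control replicates 1 and 2. CDKN1A, the p21 gene, had 0.67 (SE 1.09).

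The ARF branch had a median of 0.01 over 4 tested genes of 9. MDM2 had −0.09 (SE 0.77), NPM1, the gene of a nucleolar partner of ARF, had −0.47 (SE 0.63), and HUWE1, the gene of a ubiquitin ligase that ARF inhibits, had 0.10 (SE 0.57). NPM1 had 298 and 395 counts with BHB and 998 and 133 in control replicates 1 and 2, so both BHB libraries lay between the controls. Polycomb and opposing factors had a median of 0.08 over 12 tested of 17. EZH2, the methyltransferase in the title of the series, had −0.09 (SE 0.58). Its 49 and 39 counts with BHB lay between the 89 and 18 of control replicates 1 and 2. Its log2 fold change was 1.08 without control replicate 1 and −0.67 without control replicate 2, so no direction is drawn from it. PHC1, a subunit of the other Polycomb complex, had 0.19 (SE 0.28). KDM6B, the gene of a demethylase that removes the mark of EZH2, had −0.11 (SE 0.37). EZH2 and PHC1 lie outside the class of coding genes with no gene opposite, and the strand of their counts was not tested.

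Methionine salvage and genes linked to MTAP had a median of −0.23 over 11 tested of 14. MAT2A, which makes the methyl donor S-adenosylmethionine, had −0.01 (SE 0.35). The polyamine genes SMS and ODC1 had −0.69 (SE 0.74) and −1.02 (SE 0.71), and SMS had 81 and 92 counts with BHB and 303 and 27 in control replicates 1 and 2, so its BHB libraries lay between the controls. Neighbours on the same chromosome arm had a median of −0.14 over 3 tested of 12, with 0.21 (SE 1.16) for MLLT3, −0.14 (SE 0.58) for TUSC1 and −0.83 (SE 1.31) for CAAP1.

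Calls in the lists came and went with the control library. Of 9960 features fitted without control replicate 1, edgeR called 5.84% higher and 6.38% lower. Of 10973 fitted without control replicate 2 it called 9.43% higher and 7.21% lower. Each of these fits has 1 control library and thus the spread of the BHB pair alone. Of the list genes named here, NPM1 had a log2 fold change of 1.18 without control replicate 1 and −1.18 without control replicate 2, and SMS had 1.47 and −1.46, and both genes passed in both fits, in opposite directions. HUWE1 had 1.43 without control replicate 1 and −0.53 without control replicate 2. In the same order, E2F5 had −0.18 and 0.61, PHC1 −0.10 and 0.58, ODC1 0.77 and −1.74, and CDKN1B 0.88 and −1.65. The sign of each of these turned with the control left out, whereas TYMS had −0.52 and −0.29. None of these passed with all 4 libraries, so no direction is drawn from them.

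**Figure D5:**
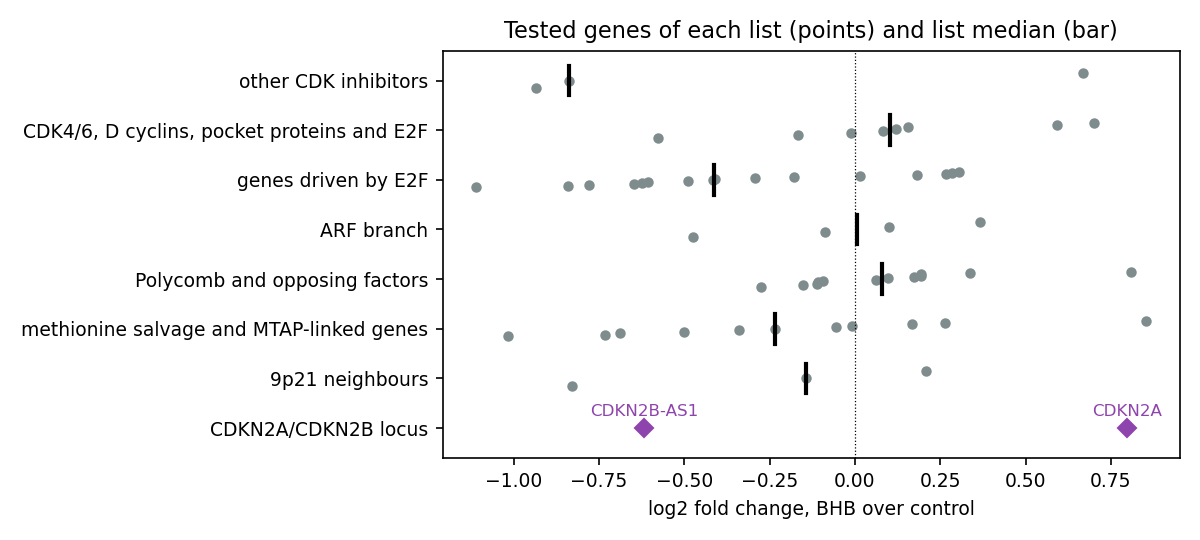
Log2 fold change of BHB over control (x axis) for each tested gene of the 7 lists (points, with the list median as a bar) and for CDKN2B-AS1 and CDKN2A (diamonds). No point passed the whole-table edgeR test, CDKN2B-AS1 lies at −0.62 and CDKN2A at 0.80, and list medians run from −0.84 to 0.10.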

How the data were processed

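RNA-seq was done on C4-2 cells with 2 BHB and 2 control libraries; RNA was taken on RNeasy Plus columns and libraries built with a stranded total RNA kit from BGI, per the labels' protocols. The authors deposited 1 table of raw counts per feature with an exon length each, without normalization. Per the submitters' processing notes, the tools were HISAT2 2.2.1 and featureCounts 2.0.3 along with limma and edgeR, on GRCh38 (hg38). Annotation release and strand setting: not given in the sources used here. Libraries were set to groups by their titles.

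Features were placed on GENCODE release 29 by name or current symbol (40078 of 59385), and opposite-strand overlaps were found with bedtools 2.31.1. Of placed features, 59.1% had the same exon length. The comparison of BHB with control used edgeR 4.0.16 (R 4.3.3, filterByExpr, TMM, robust quasi-likelihood F-test, adjusted p under 0.05), over all features. The function was tested on simulated data with large changes and a lower dispersion (spread between libraries) than the 0.117 estimated here. That test does not show what the fit can find in these libraries. SE came from the F statistic. DESeq2 1.42.0 and limma 3.58.1 (voom) were alternatives. The members and lists were chosen with earlier results of these data known. Besides the 4 genes, the rule named features overlapping them, the nearest features with a mean of at least 20 counts, the 3 tested genes with the highest mean count of each list, and the 3 features most like a member. Before fitting, 1 gene was left out of the lists and is not reported here. Replicate libraries differed by more than sampling noise (chi-square per degree of freedom 2.44 for BHB and 12.6 for controls). Total counts of 2233711 to 2565080 set the precision: 1 count is worth 0.360 to 0.510 TMM-scaled CPM, and a count of 0 allows 3 counts of the total. Intervals express only counting error, as PCR copies without molecular identifiers do not count molecules.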

Additional observations from a re-analysis of the deposited data

How the results depend on the processing

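Over all features, 0 were higher and 0 lower also under DESeq2 size factors, total counts, both other filters, DESeq2, limma-voom and the replicate block. With each library left out in turn, 0 to 1035 were higher and 0 to 791 lower. In the fits without 1 control, which have a single control library, 5.84% and 9.43% of all features were called higher and 6.38% and 7.21% lower (control replicates 1 and 2). Called list members ran from 0 to 1 for other CDK inhibitors and for Polycomb and opposing factors, 0 to 2 for the CDK4/6 and E2F list and for the ARF branch, and 0 to 4 for E2F-driven genes and for methionine salvage. The log2 fold change ran from 0.22 to 1.65 for CDKN2A and from −1.06 to −0.26 for CDKN2B-AS1. Neither changed direction in any alternative, but all alternatives reuse the same libraries, so this is a description. The smallest changes, 0.22 and −0.26, each came from a fit without 1 library. Scaling moved the median of all features between −0.04 and −0.01 in log2.

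The replicate numbers share no stated source, and same-numbered libraries did not deviate together (correlation −0.02 across features). With the replicate block, CDKN2A had 0.87 and CDKN2B-AS1 −0.66, and edgeR called 0 features, with 166 at an unadjusted p under 0.05. Without control replicate 1 the pooled ratio of CDKN2B has no value, since control replicate 2 is at 0; the same holds for MTAP. CDKN2B and MTAP did not pass the filter; with no filter their log2 fold changes were 2.35 (SE 1.70) and −0.44 (SE 1.00), not called. The cause of the spread between libraries was not tested.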
